A study of Mus musculus with 12 samples.

Results

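The Bcl2 family of apoptosis regulators was examined in mouse embryonic stem cells (ESCs) in which the transcriptional coactivator YAP had been lowered or raised. The 10 members were taken by gene symbol from the 24480 genes quantified in each library, and all 10 were found. They were Bcl2, Bcl2l1 (encoding Bcl-xL) and Mcl1, which oppose cell death, Bax and Bak1, the effectors that open the outer mitochondrial membrane, and Bcl2l11 (Bim), Bad, Bid, Bik and Pmaip1 (Noxa), which carry only the BH3 domain and promote death. The question was whether the balance between the anti-apoptotic and the pro-apoptotic members followed YAP in undifferentiated cells.

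The cells were of the E14Tg2a line, kept pluripotent, and were sampled after transient transfection, in 4 groups of 3 libraries (12 in all). CTR KD cells had received scrambled siRNAs and YAP KD cells a mixture of siRNAs targeting mouse YAP. YAP OE cells had received a plasmid encoding mouse YAP from the CAG promoter, and CTR OE cells a plasmid that encoded GFP according to the labels and was an empty vector according to the study's methods. Transfection was transient and the RNA was taken from bulk culture, so transfected and untransfected cells were measured together, and fewer cells of a kind cannot be told apart from less RNA per cell. The labels describe 3 independent experiments per group.

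The libraries held 4.29e+07 to 5.72e+07 expected counts, with 17611 to 18163 genes at 1 count or more. Expression is given as CPM, the counts of a gene scaled to a common library size after TMM normalization within each experiment. The targeted gene followed the labels. Yap1 read 116, 134 and 124 CPM in CTR KD against 58.2, 54.8 and 56.5 CPM in YAP KD, and 134, 131 and 134 CPM in CTR OE against 278, 257 and 245 CPM in YAP OE. All 10 ESC markers examined (Pou5f1, Sox2, Nanog and others) were detected in every group, at a summed 5800 to 6280 CPM, and 0 of 10 passed the edgeR test in either experiment (5 in the knockdown and 2 in the overexpression had an unadjusted p under 0.05).

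Proteins of the Bcl2 family decide whether the mitochondrial outer membrane stays intact. Anti-apoptotic members hold Bax and Bak1 in check by binding them and the BH3-only proteins, and BH3-only proteins released or induced by stress tip the balance so that Bax and Bak1 oligomerize and cytochrome c leaves the mitochondrion. Pluripotent stem cells are known to be sensitive to apoptotic stimuli, and Mcl1 and Bcl2l1 are the anti-apoptotic genes on which their survival is known to depend. YAP has no DNA-binding domain of its own and reaches its target genes mainly through TEAD factors.

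Because TEAD factors bind a short core motif, the stretch of 250 bases before each annotated transcription start site was read from RefSeq on GRCm38.p6, the build of the files. Windows were found for 8 of the 10 members, 12 windows in all. The TEAD core GGAATG, searched on both strands, was present in 2 of the 12, at Mcl1 and at a start site of Bcl2l1, beside 12.6% of all 32851 promoter windows. So few windows cannot tell the members from that share. The AP-1 motif TGANTCA (both strands), whose factors often act beside TEAD, was found in 0 of the 12 and in 6.75% of all windows. The windows that held the core are shown here, at the anti-apoptotic genes Bcl2l1 and Mcl1, with one of Bad, a BH3-only gene that changed in the other direction in YAP KD cells and whose windows did not hold it. The other 2 of the 3 windows of Bcl2l1 also did not hold the core and are not shown. It was likewise absent from the windows of members that did not pass the test in YAP KD cells. Bik, which rose like Bad, had no window, so a link between the core and the direction of change was not tested. The sequences run 5′ to 3′ on the strand of the gene, and capitals mark the TEAD core, which at Mcl1 lies on the opposite strand and so reads as its reverse complement.
Bcl2l1, chr2:152831729-152831978, minus strand: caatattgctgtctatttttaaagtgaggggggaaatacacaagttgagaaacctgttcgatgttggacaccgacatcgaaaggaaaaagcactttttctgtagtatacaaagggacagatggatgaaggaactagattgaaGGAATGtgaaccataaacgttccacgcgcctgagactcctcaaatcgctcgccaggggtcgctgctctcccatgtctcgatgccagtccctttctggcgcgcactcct
Mcl1, chr3:95658471-95658720, plus strand: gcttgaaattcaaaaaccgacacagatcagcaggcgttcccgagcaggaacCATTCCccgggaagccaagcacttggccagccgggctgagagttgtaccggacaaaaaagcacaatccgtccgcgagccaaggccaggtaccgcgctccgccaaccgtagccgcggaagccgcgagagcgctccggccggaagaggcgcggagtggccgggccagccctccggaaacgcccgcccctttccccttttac
Bad, chr19:6941611-6941860, plus strand: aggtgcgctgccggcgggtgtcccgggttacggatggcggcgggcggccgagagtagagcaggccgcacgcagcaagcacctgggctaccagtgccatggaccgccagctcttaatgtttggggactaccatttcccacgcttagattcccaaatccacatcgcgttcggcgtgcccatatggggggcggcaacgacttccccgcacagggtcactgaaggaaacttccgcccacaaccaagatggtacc
The core began 108 bases before the start site at Bcl2l1 and 199 bases before it at Mcl1. These matches describe the sequence only, and binding was not analysed here.

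To set the members side by side, levels were divided by effective transcript length. In CTR KD cells the order was Bax, with 219 ± 8.47 CPM per kilobase (SD, n = 3), then Mcl1 with 137 ± 0.593, Bid with 24.0 ± 0.216, Bak1 with 11.7 ± 1.14, Bcl2l1 with 11.2 ± 0.513, Bcl2l11 with 8.91 ± 0.196, Bad with 7.26 ± 0.531, Pmaip1 with 5.39 ± 0.240, Bik with 1.78 ± 0.137 and Bcl2 with 0.252 ± 0.0534 CPM per kilobase. The effector Bax and the anti-apoptotic Mcl1 thus stood far above all other members, and Bcl2, the founder of the family, was the lowest. Only the neighbours Bak1 and Bcl2l1 overlapped between libraries of this group. In YAP KD cells Bad (9.25 ± 0.546 CPM per kilobase), Bcl2l1 (9.15 ± 0.630) and Bcl2l11 (8.92 ± 0.361) became neighbours with overlapping libraries, while the order was the same in CTR OE as in CTR KD. In YAP OE cells Bcl2l1, at 12.7 ± 0.541 CPM per kilobase, stood next to Bak1, at 11.9 ± 0.279, and the libraries overlapped.

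**Figure D1:**
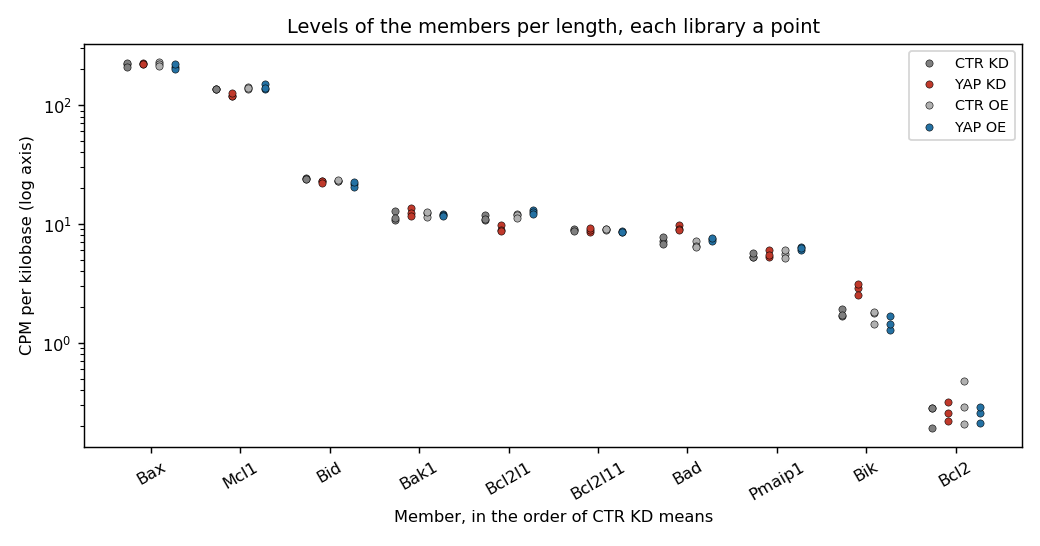
Levels of the 10 members in CPM per kilobase of effective length (vertical axis, logarithmic), each point 1 library, with the members ordered by their mean in CTR KD and the groups distinguished by colour. Bax and Mcl1 lie near or above 100 CPM per kilobase in every library, and Bcl2 lies below 0.5.

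In YAP KD cells, the anti-apoptotic genes Bcl2l1 and Mcl1 fell to 80.9% and 88.5% of control, and the BH3-only genes Bad and Bik rose to 126% and 158% of control (edgeR's quasi-likelihood F test with Benjamini-Hochberg adjustment over 14606 genes, threshold 0.05). The other 6 members did not pass the test. These 4 of 10 members compare with 5.49% of all genes tested that passed, 2.71% higher and 2.78% lower. The members were chosen with earlier results of these data known, so the comparison is descriptive. The median log2 fold change of the 10 members was 0.033, against 0.0058 for all genes tested.

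Among the anti-apoptotic members, Bcl2l1, the gene of Bcl-xL, read 24.9, 27.2 and 25.7 CPM in CTR KD and 22.6, 20.2 and 20.2 CPM in YAP KD. Every YAP KD library was below every control library. Its log2 fold change was -0.31 (SE 0.060, 95% interval -0.44 to -0.17, adjusted p = 0.0177 by edgeR). Mcl1, a short-lived protein needed continuously for survival of many cell types, read 455, 453 and 457 CPM in CTR KD against 395, 391 and 422 CPM in YAP KD. These groups also did not overlap, and the control libraries lay closer together than the YAP KD libraries. The log2 fold change of Mcl1 was -0.18 (SE 0.042, 95% interval -0.27 to -0.084, adjusted p = 0.0397). Bcl2 itself was barely detected, with 37 to 52 expected counts in CTR KD and 37 to 65 in YAP KD, which correspond to 0.811, 0.957 and 1.07 CPM against 0.874, 0.885 and 1.21 CPM. The groups overlapped, and the interval of its log2 fold change ran from -0.36 to 0.51, so that at this depth even a change as large as that of Bcl2l1 could not be told from 0.

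The effectors, which carry out permeabilization, gave overlapping groups. Bax was at 154, 157 and 146 CPM in CTR KD and at 155, 153 and 154 CPM in YAP KD. Its interval was narrow, with a log2 fold change of 0.013 (95% interval -0.078 to 0.10, adjusted p = 0.904 by edgeR). Bak1 varied more between libraries, with 19.6, 23.6 and 20.7 CPM in CTR KD and 24.8, 22.7 and 21.6 CPM in YAP KD. Its log2 fold change was 0.11 (95% interval -0.065 to 0.28, adjusted p = 0.506).

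Of the BH3-only members, Bad, which binds Bcl-xL and is held inactive by survival-factor phosphorylation, read 6.31, 6.46 and 5.99 CPM in CTR KD and 8.10, 7.83 and 7.68 CPM in YAP KD. All 3 YAP KD libraries lay above the controls, and the log2 fold change was 0.33 (SE 0.069, adjusted p = 0.0236 by edgeR). Bad overlaps Gpr137 in the annotation, no strand setting is stated, and its expected counts were not whole numbers in 11 of 12 libraries, so some reads were divided between genes. With the counts of both genes summed, the log2 fold change was 0.26 (adjusted p = 0.0483). Bik, a BH3-only protein located mainly at the endoplasmic reticulum, was detected at few counts, with 59, 79 and 64 expected counts in CTR KD and 92, 104 and 104 in YAP KD. These correspond to 1.29, 1.48 and 1.32 CPM against 2.17, 2.36 and 1.94 CPM, without overlap. Bik had the largest log2 fold change of the 10 members in YAP KD, 0.65, with a correspondingly wide error (SE 0.13, 95% interval 0.35 to 0.95, adjusted p = 0.0230).

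Bid, the BH3-only protein cleaved by caspase-8 downstream of death receptors, was at 41.6, 40.8 and 41.2 CPM in CTR KD and 39.6, 39.3 and 37.8 CPM in YAP KD. Its groups did not overlap, yet the log2 fold change of -0.084 did not pass (95% interval -0.18 to 0.0074, adjusted p = 0.297 by edgeR). With Bid, 5 of the 10 members did not overlap between YAP KD and CTR KD, beside 25.9% of all genes tested. Bcl2l11, whose product Bim binds all anti-apoptotic proteins of the family, was at 37.8, 39.9 and 38.1 CPM in CTR KD and 36.9, 38.2 and 38.6 CPM in YAP KD (log2 fold change -0.027, 95% interval -0.12 to 0.071, adjusted p = 0.802). Pmaip1, which encodes Noxa, the BH3-only protein that binds Mcl1 and a target of p53, was at 13.0, 13.0 and 14.1 CPM against 12.9, 15.03 and 13.6 CPM, with a log2 fold change of 0.052 (95% interval -0.10 to 0.21, adjusted p = 0.751). Both of these members overlapped between groups.

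**Figure D2:**
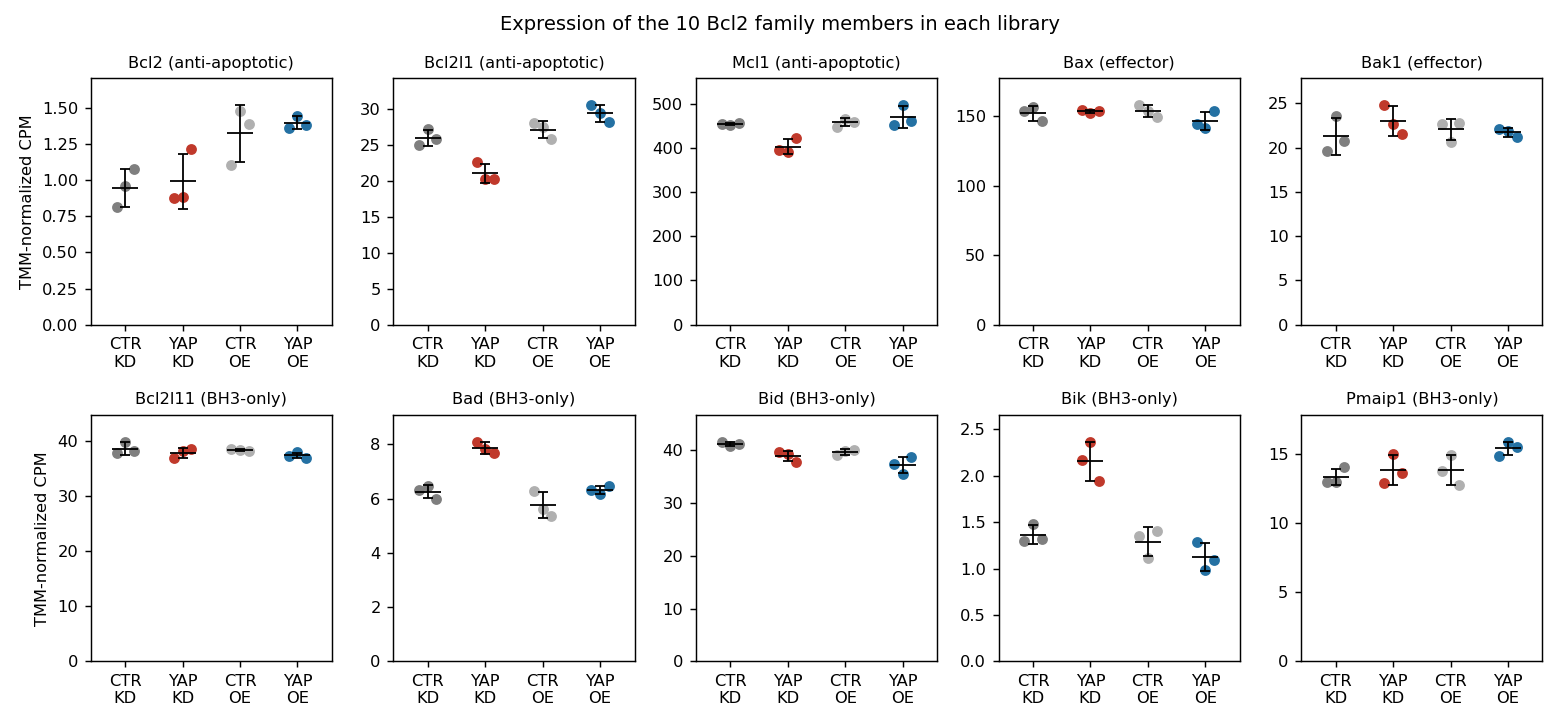
Expression of each member in TMM-normalized CPM (vertical axes start at 0) in the 4 groups, with 1 point per library and black bars for the mean and SD of 3 libraries. The YAP KD libraries lie below CTR KD for Bcl2l1 and Mcl1 and above it for Bad and Bik, while CTR OE and YAP OE lie close together for most members.

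The directions of these 4 differences held in every alternative and whenever 1 library was left out, but the calls depended on single libraries. Without CTR KD replicate 3 or YAP KD replicate 2 the test called 0 of the 10 members, without CTR KD replicate 1 or YAP KD replicate 1 it called 1 (Bcl2l1), and without YAP KD replicate 3 it called 2 (Mcl1 and Bik). Only without CTR KD replicate 2 did all 4 stay below the threshold. The adjusted p-values of these fits reached 0.0952 for Bcl2l1, 0.175 for Mcl1, 0.102 for Bad and 0.105 for Bik, and the number of genes called in all fell as well, to between 298 and 574 in the 5 fits that lost members. Vim, a gene expressed in fibroblasts and other mesenchymal cells, and the neural progenitor gene Nes and neuronal gene Tubb3 moved in the same libraries, with log2 fold changes of 0.53, 0.45 and 0.32 (adjusted p = 0.000227, 0.000730 and 0.00975 by edgeR). The summed level of the 8 fibroblast markers was 51.9 to 55.4 CPM in CTR KD and 74.6 to 80.7 CPM in YAP KD, almost all of it Vim, with 4 of 5 tested markers positive, 3 of them at an unadjusted p under 0.05 (Vim, Col1a1 and Col1a2) and 1 called, and with Lum at 0 in every CTR KD library and 6 of the 8 under 1 CPM in all libraries of both groups. The 8 neural and mesoderm markers summed to 85.9 to 90.6 CPM and 103 to 108 CPM, and 3 of 8 were under 1 CPM throughout. Nes and Tubb3 were the 2 called of 7 tested, and the list was not uniform, with 3 positive, 4 negative and a median log2 fold change of -0.038. The 8 primitive endoderm markers summed to 34.2 to 39.7 CPM and 38.1 to 45.0 CPM, with 0 called and 0 at an unadjusted p under 0.05. Whether these differences have a part in those of the members was not tested.

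Raising YAP gave no called member. In YAP OE cells 0 of 10 members passed the test, beside 2.13% of all 14804 genes tested and 1.66% that were called higher. Unadjusted p-values were under 0.05 for 2 members, Bcl2l1 and Pmaip1, and DESeq2 and limma-voom also called 0. The median log2 fold change of the members was 0.0073, against -0.0025 for all genes tested.

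Bcl2l1 read 28.1, 27.4 and 25.8 CPM in CTR OE and 30.5, 29.4 and 28.1 CPM in YAP OE. The lowest YAP OE library lay just above the highest control, and the log2 fold change was 0.11 (SE 0.049, 95% interval 0.010 to 0.22, adjusted p = 0.312 by edgeR). Mcl1 was at 448, 466 and 459 CPM against 452, 497 and 460 CPM, with overlap and with YAP OE replicate 2 the highest of the 6. Its log2 fold change was 0.037 (95% interval -0.062 to 0.13, adjusted p = 0.814). Bcl2 was at 1.10, 1.48 and 1.39 CPM in CTR OE and 1.36, 1.45 and 1.38 CPM in YAP OE, which overlapped (log2 fold change 0.075, adjusted p = 0.905).

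The effectors again overlapped. Bax was at 158, 154 and 149 CPM in CTR OE and 144, 141 and 154 CPM in YAP OE (log2 fold change -0.071, adjusted p = 0.525 by edgeR), and Bak1 at 22.7, 20.7 and 22.8 CPM against 22.1, 21.9 and 21.2 CPM (log2 fold change -0.022, adjusted p = 0.917). Among the BH3-only members, Pmaip1 was at 13.8, 14.99 and 12.8 CPM in CTR OE and 14.9, 15.9 and 15.5 CPM in YAP OE. One control library lay within the YAP OE range, and the log2 fold change was 0.16 (SE 0.063, 95% interval 0.022 to 0.29, adjusted p = 0.276). Bad was at 6.29, 5.63 and 5.35 CPM against 6.32, 6.15 and 6.47 CPM, with a log2 fold change of 0.14 that did not pass (adjusted p = 0.532).

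Bik was at 1.35, 1.11 and 1.41 CPM in CTR OE and 1.28, 0.987 and 1.09 CPM in YAP OE, from 43 to 74 expected counts. The groups overlapped, and the interval of its log2 fold change, from -0.55 to 0.15, was the widest of the 10 in this experiment (adjusted p = 0.680 by edgeR). Bid was at 39.0, 39.7 and 40.0 CPM against 37.3, 35.5 and 38.6 CPM (log2 fold change -0.091, adjusted p = 0.390), and Bcl2l11 at 38.6, 38.4 and 38.2 CPM against 37.2, 38.0 and 37.0 CPM (log2 fold change -0.037, adjusted p = 0.770). Neither overlapped between groups, although the differences were small. With Bcl2l1, 3 of the 10 members did not overlap between YAP OE and CTR OE, beside 18.1% of all genes tested.

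**Figure D3:**
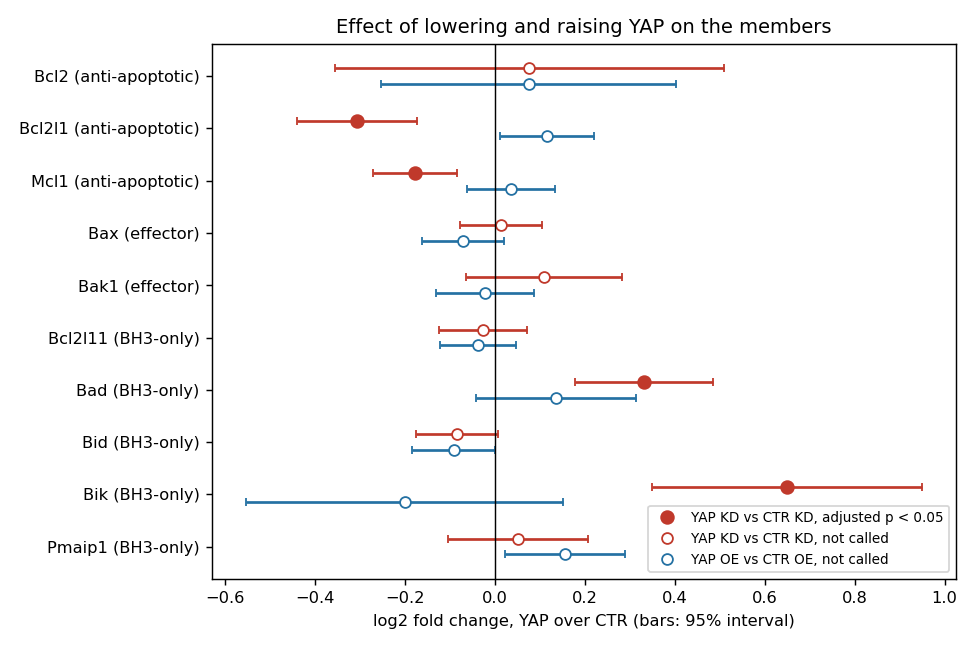
Log2 fold changes of the members (horizontal axis) in YAP KD against CTR KD (red) and YAP OE against CTR OE (blue), with 95% intervals, filled where the adjusted p was under 0.05. The filled points are Bcl2l1 at -0.31, Mcl1 at -0.18, Bad at 0.33 and Bik at 0.65, all in YAP KD.

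Whether a member followed YAP was examined by testing the effect of overexpression minus the effect of knockdown over all 12 libraries. This difference is positive for a gene that goes with YAP. The test contains the knockdown effect, so a gene changed in the knockdown alone can pass it. It is therefore no independent support for the calls in YAP KD, and 0 of 10 members passed in YAP OE. The 2 anti-apoptotic genes that had fallen in YAP KD were positive, Bcl2l1 with a difference of 0.42 on the log2 scale (SE 0.079, adjusted p = 0.00313 by edgeR) and Mcl1 with 0.21 (SE 0.061, adjusted p = 0.0386). The BH3-only gene Bik was negative, with -0.85 (SE 0.20, adjusted p = 0.0164). These 3 of 10 members compare with 8.80% of all 15049 genes tested, 5.24% positive and 3.56% negative. Bad, called in YAP KD, was not called here, its effect being positive in both experiments (difference -0.19, 95% interval -0.41 to 0.023, adjusted p = 0.284).

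For the other 6 members the difference was between -0.13 for Bak1 and 0.11 for Pmaip1, and none passed the test. The narrowest of these intervals, that of Bcl2l11, ran from -0.12 to 0.10, and that of Bid from -0.12 to 0.11. The call of Bcl2l1 held in all 9 alternatives run for this test and in all 12 fits without 1 library, with adjusted p-values up to 0.0171. That of Bik held in the 9 alternatives and in 11 of the 12 fits, and was lost without CTR OE replicate 3 (difference -0.78, adjusted p = 0.0526). Mcl1 held in 7 of 9 alternatives and in 4 of the 12 fits, its adjusted p reaching 0.109 without CTR OE replicate 1. It was called only in the fits without CTR KD replicate 2, YAP KD replicate 3, YAP OE replicate 1 or YAP OE replicate 3. The knockdown gave the larger effect for all 3 genes, a comparison of sizes that was not tested: Bcl2l1 moved by -0.31 and 0.11, Mcl1 by -0.18 and 0.037, and Bik by 0.65 and -0.20.

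The balance of the family was summarized per library as the summed CPM per kilobase of the 3 anti-apoptotic members over that of the 7 pro-apoptotic members. In CTR KD the ratio was 0.531, 0.518 and 0.557, and in YAP KD it was 0.447, 0.447 and 0.487. Every YAP KD library was below every CTR KD library, and the group means were 0.535 ± 0.0198 and 0.460 ± 0.0227 (SD, n = 3 each). On the log2 scale the ratio was -0.22 in YAP KD relative to CTR KD, a difference larger than the SDs of 0.053 and 0.070 within the groups. In CTR OE the ratio was 0.513, 0.549 and 0.549 and in YAP OE it was 0.561, 0.631 and 0.539. These groups overlapped, and their log2 difference of 0.10 was within the SD of 0.12 among YAP OE libraries. Without YAP OE replicate 2, the highest library, it was 0.034, and without CTR OE replicate 1 or YAP OE replicate 3 it was 0.067 and 0.15. No test was made on these ratios, since the members form a score.

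Abundant genes set the ratio. Mcl1 made up 91.1% to 93.4% of the anti-apoptotic sum, and Bax 78.0% to 79.6% of the pro-apoptotic sum. In the knockdown the anti-apoptotic sum went from 149 ± 0.477 to 131 ± 4.56 CPM per kilobase, and the pro-apoptotic sum was 278 ± 9.70 and 285 ± 5.02. The lower ratio in YAP KD cells therefore came mainly from the numerator, and the called BH3-only genes, Bad and Bik, are too low to weigh in it. Without Mcl1 the log2 difference in YAP KD was -0.32. With the mean of log2 levels, in which members count alike within each side but not across the sides, it was -0.29. In YAP OE the difference without Mcl1 was 0.16, with every YAP OE library above every CTR OE library. With the mean of log2 levels it was -0.0079, so its size and sign depended on the measure used. In that mean Bcl2 weighs as much as Mcl1, although it was barely detected and its length estimate varied widely. Bcl2 read 0.324 ± 0.136 CPM per kilobase in CTR OE and 0.252 ± 0.0390 in YAP OE, whereas its CPM had a log2 fold change of 0.075. The mean of log2 levels without Bcl2 was not examined.

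**Figure D4:**
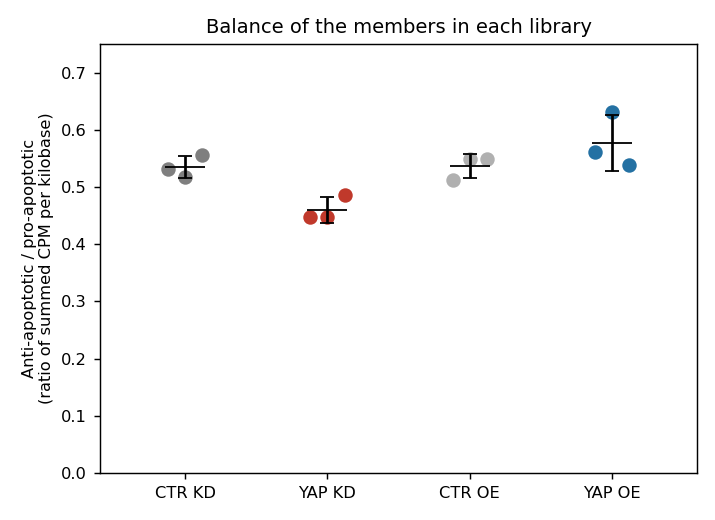
Ratio of the summed anti-apoptotic to the summed pro-apoptotic members (CPM per kilobase, vertical axis from 0) in each library, with the mean and SD of 3 libraries per group. YAP KD libraries lie at 0.447 to 0.487, below the CTR KD libraries at 0.518 to 0.557, whereas YAP OE and CTR OE overlap.

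The Bcl2l1, Bcl2, Bcl2l11 and Bad genes each have more than 1 annotated transcript, and for these the mean transcript length estimated by the authors' quantification gave a measure of transcript use. Bcl2l1, whose long and short splice forms encode proteins of opposite function, averaged 2483 ± 6.94 bases in CTR KD and 2474 ± 14.2 in YAP KD (SD, n = 3, exact permutation test, two-sided, p = 0.4, adjusted over 8 tests 0.8). In CTR OE and YAP OE it averaged 2494 ± 6.41 and 2496 ± 7.95 bases (exact permutation p = 0.7, adjusted 0.8). Bcl2l11 was longer in every YAP OE library than in CTR OE, 4523 ± 26.7 against 4445 ± 42.6 bases, with p = 0.1 in the exact permutation test, the smallest that 3 against 3 libraries allow (adjusted 0.8). A mean length does not say which transcript changed. For Bcl2 the estimate swung widely at its few counts, from 4571 ± 1135 to 5803 ± 845 bases in the overexpression libraries (exact permutation p = 0.3, adjusted 0.8).

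The genes whose pattern over the 12 libraries was most like each called member were listed after subtracting each experiment's mean, among the 12395 genes that averaged 50 expected counts or more. For Bcl2l1 they were Iqgap1 (Pearson r = 0.96), Abhd4 (0.95) and Poldip2 (0.95), and its r with Yap1 was 0.87. For Mcl1 they were Sap30 (0.94), Npr3 (0.93) and Tapt1 (0.92), with an r of 0.72 with Yap1. Bik was most like Tmem57 (0.95), Atp10a (0.95) and Urgcp (0.94), and Bad most like Kctd15 (0.97), Zfp706 (0.94) and Zbed4 (0.93), their r with Yap1 being -0.78 and -0.41. These are correlations over libraries that fall into 4 groups and share their treatment, and the 3 genes are the top of many, so they are descriptive.

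Other genes of the pathway were read one by one in 9 lists of 71 genes, of which 53 were expressed highly enough to test in the knockdown and 54 in the overexpression experiment. In YAP KD cells 2 rose (Bnip3 and Aifm1) and 3 fell (Hrk, Trp73 and Ddit3), so 5 of 53 passed beside 5.49% of all genes tested, and the median log2 fold change of the 53 was 0.0069. In YAP OE cells Bnip3 and Ddit3 rose, 2 of 54 beside 2.13% of all genes, with a median of 0.014. Among relatives of the members, only 1 of the 6 other anti-apoptotic genes was expressed enough to test, Bcl2l2 (Bcl-w), with log2 fold changes of 0.044 in YAP KD and -0.11 in YAP OE, neither of which passed. Of the 5 other pro-apoptotic relatives 1 fell in YAP KD and 0 passed in YAP OE by edgeR. At an unadjusted p under 0.05 there were 3 in YAP KD and 1 in YAP OE. In YAP KD the log2 fold changes of the 5 ran from -0.31 to 0.55, with 3 positive and 2 negative. Hrk, a BH3-only gene known from neurons, read 9.33, 10.1 and 9.39 CPM in CTR KD and 7.68, 7.99 and 7.66 CPM in YAP KD, without overlap (log2 fold change -0.31, SE 0.066, adjusted p = 0.0257 by edgeR). In contrast to Bad and Bik this BH3-only gene thus went down. Bbc3 (Puma), a p53 target, and Bmf, which did not pass, had log2 fold changes of -0.20 (adjusted p = 0.359) and 0.12 (adjusted p = 0.236).

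Of 7 tested relatives of less settled function, 1 passed in each experiment, beside 5.49% (YAP KD) and 2.13% (YAP OE) of all genes tested. This was Bnip3, a mitochondrial protein induced by hypoxia and involved in mitophagy, which was higher when YAP was lowered and also when it was raised. It read 32.4, 27.3 and 37.1 CPM in CTR KD against 41.9, 58.8 and 53.5 CPM in YAP KD, and 32.5, 33.4 and 40.8 CPM in CTR OE against 47.4, 63.8 and 63.3 CPM in YAP OE. Both comparisons were without overlap, with log2 fold changes of 0.67 (SE 0.13, adjusted p = 0.0171 by edgeR) and 0.71 (SE 0.099, adjusted p = 0.00106). The difference between the effects was 0.035 (adjusted p = 0.947). The call in the knockdown was lost without YAP KD replicate 2 or 3 (adjusted p = 0.0754 and 0.0683).

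Downstream of the mitochondrion, 5 caspases of the list were tested, among them the initiators Casp2 and Casp9, and 0 of 5 passed in either experiment by edgeR, 0 also at an unadjusted p under 0.05. Their log2 fold changes had a median of 0.038 in YAP KD and 0.034 in YAP OE. Among 9 genes of the apoptosome and of mitochondrial release, Aifm1 (apoptosis-inducing factor) reached 0.16 on the log2 scale in YAP KD (adjusted p = 0.0495), at the edge of the threshold, and this call held in only 3 of 10 alternatives, being lost also with DESeq2 and limma-voom. In YAP OE 0 of 9 passed. At an unadjusted p under 0.05 there were 2 of the 9 in YAP KD and 1 in YAP OE. Cycs, Vdac1 and Vdac2, cytochrome c and mitochondrial channels at high levels, did not pass in either experiment. The tested inhibitor of apoptosis genes (6 of 10 listed, led by Birc6, Birc5 and Xiap), death receptor genes (7 of 10 in YAP KD and 8 in YAP OE) and regulators of Mcl1 turnover (5 of 5, led by Usp9x and Huwe1) gave 0 calls in both experiments by edgeR. At an unadjusted p under 0.05 these lists held 0, 2 and 0 genes in YAP KD and 0, 2 and 0 in YAP OE.

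Of the transcription factors known to induce BH3-only genes, 2 of 8 tested fell in YAP KD and 1 rose in YAP OE. Of all genes tested, 2.78% were called lower in YAP KD and 1.66% higher in YAP OE. Ddit3 (CHOP), the stress factor of the endoplasmic reticulum that can induce Bcl2l11, read 11.5, 13.3 and 11.98 CPM in CTR KD against 9.54, 9.60 and 8.80 CPM in YAP KD, and 12.4, 12.3 and 11.4 CPM in CTR OE against 14.02, 14.2 and 16.7 CPM in YAP OE. It was without overlap in both experiments, with log2 fold changes of -0.40 (SE 0.074, adjusted p = 0.0135 by edgeR) and 0.32 (SE 0.072, adjusted p = 0.0312). Trp73, a relative of p53, read 4.01, 5.11 and 4.93 CPM in CTR KD and 3.35, 2.54 and 2.74 CPM in YAP KD. Its log2 fold change was -0.71 (SE 0.13, adjusted p = 0.0144), against -0.046 in YAP OE (adjusted p = 0.898). Trp53 itself, at 206 CPM in CTR KD, had log2 fold changes of -0.11 and -0.013 and did not pass.

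As with the members, the pathway calls also depended on single libraries. In YAP KD the count of 5 became 1 without CTR KD replicate 3 or YAP KD replicate 2. It became 0 when YAP KD replicate 3 was left out and 3 when YAP KD replicate 1 was. Adjusted p-values reached 0.0943 for Hrk, 0.191 for Aifm1, 0.0747 for Trp73 and 0.0631 for Ddit3. In YAP OE the count of 2 became 1 without any one CTR OE library or YAP OE replicate 3, when Ddit3 was no longer called (adjusted p = 0.0729 to 0.182), and 3 without YAP OE replicate 1. Bnip3 was called in all 6 of these fits. The marker genes called in YAP OE by edgeR were Dab2 (primitive endoderm, log2 fold change 0.63, adjusted p = 0.00645) and Tubb3 (-0.20, adjusted p = 0.0353). The 8 primitive endoderm markers summed to 36.9 to 42.5 CPM in CTR OE and 38.8 to 46.1 CPM in YAP OE, with 4 of 8 under 1 CPM throughout and none at 0 in all libraries of a group. Of these 8, 5 were positive and 3 negative, and only Dab2 had an unadjusted p under 0.05. The 8 neural and mesoderm markers summed to 94.8 to 95.2 CPM in CTR OE and 85.1 to 87.0 CPM in YAP OE, without overlap. The list was not uniform, with 3 of 7 tested positive and 4 negative, and 5 had an unadjusted p under 0.05, 1 of them called. Of these 5, T and Eomes were higher (log2 fold changes 0.71 and 0.55) and Pax6, Nes and Tubb3 lower (-0.21, -0.12 and -0.20). The part of the marker genes in these results was not tested.

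**Figure D5:**
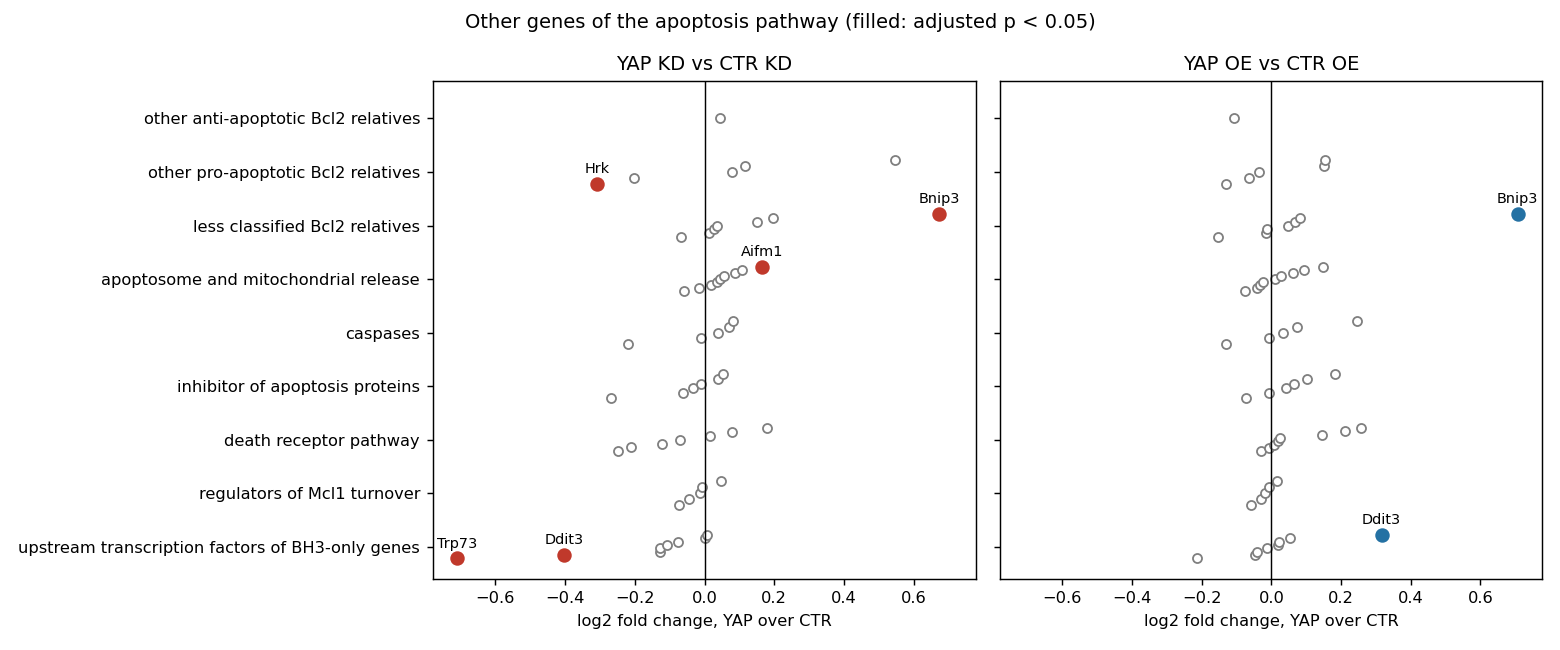
Log2 fold changes (horizontal axes) of the tested genes in 9 apoptosis lists (rows), for YAP KD against CTR KD on the left and YAP OE against CTR OE on the right, filled and named where the adjusted p was under 0.05. In YAP KD 5 of 53 genes are filled and in YAP OE 2 of 54, and Bnip3 lies near 0.7 in both.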

How the data were processed

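RNA was measured by sequencing in 12 libraries of 4 groups. The authors aligned reads with STAR to mm10 (GRCm38) and quantified RefSeq curated transcripts with RSEM, whose versions and strand setting are not given in the sources used here. The deposited expected counts per gene are not normalized and were rounded to whole numbers. The TPM values deposited by the authors served only as an alternative for the balance, and RSEM's effective lengths for levels per kilobase.

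The quasi-likelihood F test of edgeR 4.0.16 (R 4.3.3) was run separately on the 6 libraries of each experiment, with TMM factors, filterByExpr and Benjamini-Hochberg adjustment over all genes kept, and a call was an adjusted p under 0.05. The difference of effects used all 12 libraries. Biological coefficients of variation were 5.66% (knockdown) and 4.43% (overexpression), and no pair of libraries agreed within counting noise. The scripts were tested on simulated data. Alternatives covered normalization, filtering, DESeq2 1.42.0, limma-voom 3.58.1, effective length, a replicate block and leaving out each library.

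All 10 members were named. Of the other lists, genes called in either experiment were named, with at most 3 further genes of high level per list, and for each called member the 3 genes with the most similar pattern. The members and lists were chosen with earlier results of these data known. A gene of the pathway lists is not reported here. RefSeq promoter windows were not found for Bik and Pmaip1.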

Additional observations from a re-analysis of the deposited data

Results flagged for a closer look

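The effect of overexpression minus that of knockdown was called for 3 of 10 members and 6 of 56 other pathway genes tested. The test was edgeR's on the difference itself, and 8.80% of all genes tested were called. Overexpression raised YAP and knockdown lowered it, so a gene that follows YAP in both gives such a difference. A gene that changes in the knockdown alone can give it as well. The differences, overexpression minus knockdown, were 0.42 for Bcl2l1, 0.21 for Mcl1 and -0.85 for Bik among the members. For Hrk it was 0.46, from -0.31 in the knockdown and 0.15 in overexpression (adjusted p = 0.00388). For Ddit3 it was 0.72 (adjusted p = 0.000730) and for Trp73 0.67 (adjusted p = 0.0148). Aifm1 gave -0.19 (adjusted p = 0.0453).

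A further 2 genes of the pathway were called in this test but in neither experiment alone, and they are named here because of these values. Apaf1, the scaffold of the apoptosome, gave 0.21 (adjusted p = 0.0367), from -0.060 in the knockdown and 0.15 in overexpression. Cflar (c-FLIP), an inhibitor of caspase-8 at death receptors, gave 0.40 (adjusted p = 0.0103), from -0.25 and 0.15. Of these 9 genes, Bcl2l1, Hrk, Cflar, Trp73 and Ddit3 were called in all 12 fits without 1 library, Bik in 11, Mcl1 in 4, Apaf1 in 3 and Aifm1 in 1.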

How the results depend on the processing

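With 3 libraries per group, calls near the threshold are the main limit, and Bcl2 and Bik rest on 37 to 77 and 43 to 104 counts per library. In YAP KD the 4 members were called under RLE and upper-quartile factors, either filter, DESeq2, limma-voom, the fit over 12 libraries and the length offset, and 3 under total counts, where Mcl1 had an adjusted p of 0.0535. Replicate numbers gave no sign of pairing the samples. Same-numbered deviations correlated at -0.35, -0.23 and 0.012 in the knockdown and at 0.036, 0.062 and -0.016 in the overexpression. Differently numbered knockdown libraries correlated at -0.16 to 0.36. With the replicate block 0 members and 0 pathway genes were called in YAP KD (193 genes in all, against 802). The block left 1 pathway gene called in YAP OE and 2 members in the difference. The cause was not tested. The fit over 12 libraries called 9 pathway genes in YAP KD and 1 in YAP OE. Leaving out 1 library gave 0 to 4 members and 0 to 7 pathway genes in YAP KD, 0 members and 1 to 3 pathway genes in YAP OE, and 1 to 3 members in the difference. No filter beyond 1 count called 556 genes in YAP OE, against 316, and 0 members.

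The balance differed by -0.29 in YAP KD with the mean of log2 levels and by -0.32 without Mcl1, and in YAP OE by -0.0079 with the mean of log2 levels and by 0.16 without Mcl1, where the groups did not overlap. Leaving out 1 library gave -0.26 to -0.19 in YAP KD and 0.034 to 0.15 in YAP OE. Log2 fold changes of members and pathway genes turned sign only where they had not passed the test. With the length offset Bcl2l11 in YAP KD was 0.0028 and Bcl2 in YAP OE -0.29. Without 1 library, Bcl2 in YAP KD ranged from -0.11 to 0.17, Bax from -0.014 to 0.036 and Pmaip1 from -0.0095 to 0.096, and in YAP OE Bcl2 ranged from -0.041 to 0.16, Mcl1 from -0.0077 to 0.064, Bak1 from -0.068 to 0.0014, Aifm1 from -0.043 to 0.0011 and Trp73 from -0.091 to 0.0038. Summing Bad with Gpr137 and Bcl2l1 with Cox4i2, an alternative chosen after seeing the data, changed no call.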
